A study of Mus musculus with 15 samples.

Results

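A set of 9 genes of cellular senescence and the p53 response were followed in mouse liver, and are described here across 3 groups and in each mouse: Cdkn1a, Cdkn2a, Cdkn2b, Cdkn2c, Trp53, Mdm2, Ccng1, Gdf15 and Btg2. They were taken as a named set, and their symbols were matched to the Ensembl identifiers of the count table. All 9 of 9 were found among 55450 identifiers, and all 9 passed the low-count filter that left 15808 genes for testing. The study sequenced polyadenylated RNA from whole liver of 15 female C57BL/6 mice, 5 in each group, to ask what aging and protectin DX (PDX), a lipid mediator made from docosahexaenoic acid, do to liver expression. Adult mice are labelled 6 months old and Old mice 22 months old, and both received corn oil by daily gavage. PDX mice are also labelled 22 months old and received PDX in corn oil at 30 ng per g of body weight. The treatment protocol gives 9 weeks of gavage and the design text 8 weeks. By the study's account these ages are those at the start, and tissue was taken after the gavage and the last tests, so every mouse was some months older at collection. Adult mice given PDX were not among the samples, so age and treatment cannot be told apart between the PDX and Adult groups.

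p53, the product of Trp53, is a transcription factor that DNA damage and other stresses stabilize, and Mdm2 is the ubiquitin ligase that marks it for destruction and is itself a p53 target. Through Cdkn1a, which encodes the cyclin-dependent kinase (CDK) inhibitor p21, p53 halts the cell cycle. The INK4 inhibitors p16 (Cdkn2a), p15 (Cdkn2b) and p18 (Cdkn2c) act on CDK4 and CDK6 and keep the retinoblastoma protein active. Lasting arrest of this kind, often with secretion of inflammatory factors, is called senescence, and p16 and p21 are its most used transcript markers in aged tissues.

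The promoters of these genes are shown because the members differ in which regulatory letters lie near their start. The windows ran from 250 bases before to 50 bases after each RefSeq start on GRCm38.p6, and all 9 members matched, with 13 windows. A p53 half-site, the 10-base pattern bound by a p53 dimer, was searched on both strands and lay in 4 of the 13 windows, those of Cdkn1a, Mdm2, Ccng1 and Trp53, against 8.36% of 32851 promoter windows. The cyclic AMP response element TGACGTCA lay in 2 of the 13 windows, those of Btg2 and Cdkn2b, against 1.79% of windows. Of the other motifs searched, CCAAT lay in 7 of the 13 windows (37.4% of all windows), GGGCGG in 7 (35.7%), CACGTG in 3 (7.15%) and TATAAA in 1 (13.6%). A match describes letters only, and its absence says only that the letters are not in that window. The first 2 sequences below are the promoters of Btg2, the member with the highest level per length in Old mice, and Cdkn1a, the member with the widest spread among them, with the half-sites of Cdkn1a and the response element of Btg2 in capitals. The 4 shorter stretches hold the same motifs, again in capitals, in other members. The sequences are from RefSeq and read 5′ to 3′ along the gene. The Btg2 promoter is chr1:134079156-134079405 on the minus strand and the Cdkn1a promoter is chr17:29090729-29090978 on the plus strand. Cdkn1a has 2 RefSeq starts, 2790 bases apart, and the promoter shown is that of the upstream start. The window of the other start held 0 half-sites. The stretches are chr10:117710925-117710954 (minus) for Mdm2, chr11:40755452-40755481 (minus) for Ccng1, chr11:69580274-69580303 (plus) for Trp53 and chr4:89311060-89311089 (minus) for Cdkn2b.
Btg2: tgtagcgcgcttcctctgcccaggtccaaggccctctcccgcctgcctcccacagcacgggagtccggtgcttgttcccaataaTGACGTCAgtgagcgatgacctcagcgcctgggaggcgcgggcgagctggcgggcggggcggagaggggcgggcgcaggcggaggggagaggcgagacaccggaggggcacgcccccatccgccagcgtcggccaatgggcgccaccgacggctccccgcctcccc
Cdkn1a: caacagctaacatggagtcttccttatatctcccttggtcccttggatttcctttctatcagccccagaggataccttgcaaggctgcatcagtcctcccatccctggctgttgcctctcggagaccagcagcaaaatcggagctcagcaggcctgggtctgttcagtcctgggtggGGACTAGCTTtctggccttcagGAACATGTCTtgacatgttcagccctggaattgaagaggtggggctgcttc
Mdm2: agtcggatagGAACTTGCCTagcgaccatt
Ccng1: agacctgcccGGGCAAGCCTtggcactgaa
Trp53: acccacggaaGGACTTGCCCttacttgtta
Cdkn2b: tatttgtctcaTGACGTCAccaagtgtggg

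Every level is given as CPM, a gene's read count relative to its library's total, with totals scaled by the trimmed mean of M-values (TMM). Libraries held 22424383 to 36070835 counted read pairs in Adult, 25480180 to 29069346 in Old and 26113995 to 30139181 in PDX mice. Levels were compared between genes only as mean CPM per kilobase of exon. In Adult mice the order ran from Gdf15 (9.77) through Ccng1 (8.37), Btg2 (6.42), Trp53 (5.69), Mdm2 (5.12), Cdkn1a (3.83) and Cdkn2c (2.21) to Cdkn2b (0.244) and Cdkn2a (0.196). In Old mice Btg2 stood first at 40.1, followed by Cdkn1a at 13.6 and Gdf15 at 12.3, and Cdkn2a and Cdkn2b remained last at 0.636 and 0.429. In PDX mice the per-kilobase order was Btg2 (28.4), Gdf15 (13.4), Cdkn1a (10.9), Ccng1 (8.03), Trp53 (6.65), Mdm2 (5.37), Cdkn2c (3.40), Cdkn2a (1.29) and Cdkn2b (0.564). Neighbours in these orders were often closer than their spread over mice, as with Gdf15, whose 5 Adult mice covered a 6.46-fold range. The gap between Cdkn2c and the pair Cdkn2a and Cdkn2b exceeded the spread in each group.

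**Figure D1:**
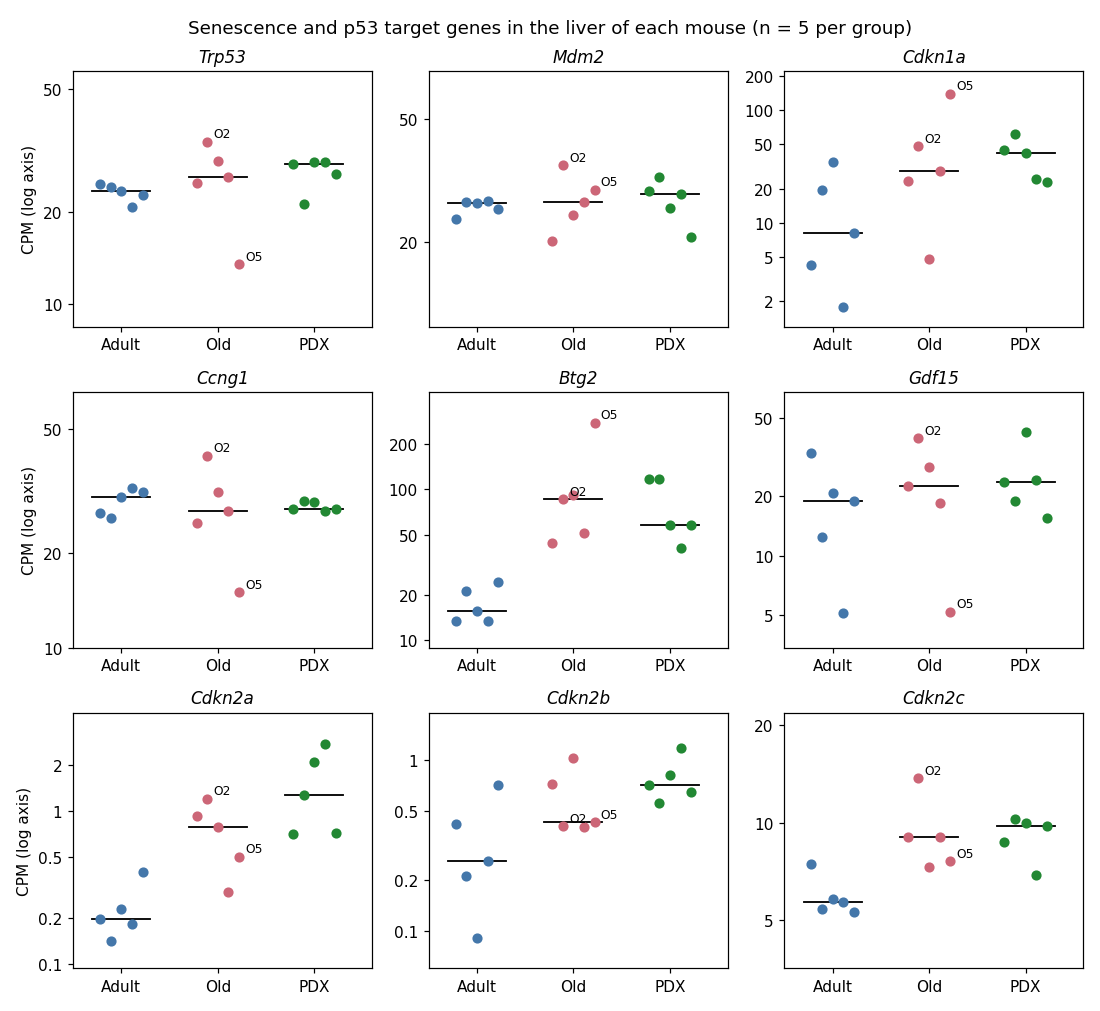
Level of each gene in each mouse, in CPM on a log axis, with 5 mice per group in the order of their labels and a black line at each group's median. Btg2 is higher in every Old and PDX mouse (40.7 to 276 CPM) than in any Adult mouse (13.4 to 24.3 CPM), while Trp53, Mdm2 and Ccng1 overlap in all 3 groups and mice O2 and O5 mark the ends of the Old range for several genes.

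Age was examined by setting Old against Adult mice, both on vehicle. 2 of 9 members rose with age, Btg2 and Cdkn2c, and none fell, at an adjusted p under 0.05 (quasi-likelihood test of edgeR, adjusted over all genes by Benjamini and Hochberg). Over all 15808 genes 6.78% passed, 4.71% as higher and 2.07% as lower in Old. Without mice O2 and O5, 1 of 9 members passed, Btg2, against 7.12% of 16275 genes. The median log2 fold change was 0.65 over the members and 0.07 over all genes, and 4 of 9 members had an unadjusted p under 0.05 against 27.7% of all genes.

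Btg2, an antiproliferative protein of the BTG and TOB family that is both a p53 target and an early response gene, lies at chr1:134075170-134079120 (minus strand). It measured 13.4, 21.2, 15.6, 13.4 and 24.3 CPM in the 5 Adult mice. It measured 44.1, 85.7, 91.4, 51.5 and 276 CPM in the 5 Old mice. Every Old mouse was above every Adult mouse, and O5 stood far above the other Old mice. The groups did not overlap for 8.15% of all genes (3.64% higher and 4.51% lower in Old), and for no other member. The means were 17.6 ± 4.93 (SD, n = 5) and 110 ± 95 CPM, a 6.24-fold difference (log2 fold change 2.64, SE 0.48, 95% interval 1.63 to 3.66, adjusted p = 0.011). Without O5 the log2 fold change was 1.95 (adjusted p = 0.00687), and without O2 and O5 it was 1.84 (adjusted p = 0.00907).

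Cdkn2c, which encodes the CDK4 and CDK6 inhibitor p18, lies at chr4:109660876-109667189 (minus strand). Its levels in the Adult mice were 7.47, 5.39, 5.79, 5.70 and 5.31 CPM. Its levels in the Old mice were 9.04, 13.7, 7.27, 9.02 and 7.60 CPM. A1 was the highest Adult mouse and exceeded O3, so the groups overlapped, while the other Adult mice were below every Old mouse. The log2 fold change was 0.65 (SE 0.19, adjusted p = 0.0476). This call was lost without each Adult mouse (adjusted p = 0.0608 to 0.110), without O2 (0.0885) and without O4 (0.0507).

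Cdkn2a, the gene of p16 and of the alternative frame protein p19Arf, which inhibits Mdm2, lies at chr4:89274471-89294653. Its 2 RefSeq starts are 12427 bases apart and share later exons, so the gene counts cannot separate p16 from p19Arf. Between 4 and 14 reads fell on it in each Adult mouse and between 8 and 41 in each Old mouse. The Adult levels were 0.197, 0.141, 0.228, 0.183 and 0.402 CPM. The Old levels were 0.934, 1.2, 0.791, 0.297 and 0.504 CPM. O4 was below A5, and the other Old mice were above every Adult mouse. The log2 fold change of 1.67 (SE 0.48) did not pass the threshold (adjusted p = 0.0512). It did pass with DESeq2 (0.0145), with another normalization in edgeR (0.0491) and without O4 or O5 (0.0307 and 0.0366). It did not pass with no filter beyond 1 count (0.0778), with the replicate number as a block (0.134) or with only the 2 groups compared (0.099). Nor did it pass without O1, O2 or O3 (0.0508 to 0.114) or without each Adult mouse (0.0702 to 0.118). Without O2 and O5 it was 1.52 (adjusted p = 0.105).

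Cdkn2b, encoding p15, lies 11646 bases from Cdkn2a. It had between 2 and 33 reads in a mouse over all groups and averaged 0.339 ± 0.242 CPM in Adult and 0.597 ± 0.269 CPM in Old mice (adjusted p = 0.28). The Adult mice ran from 0.0911 to 0.717 CPM and the Old mice from 0.408 to 1.02 CPM, and the groups overlapped.

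Cdkn1a, encoding p21, lies at chr17:29090976-29100727 (plus strand), and its exons overlap those of AC167363.2 on the opposite strand, which strand-specific counting keeps apart. It was the most variable member among the Adult and among the Old mice, by the ratio of the highest to the lowest mouse. It measured 4.19, 19.6, 34.5, 1.79 and 8.00 CPM in the Adult mice. It measured 23.3, 47.3, 4.78, 28.6 and 138 CPM in the Old mice. The highest mouse exceeded the lowest by 19.3-fold among Adult and by 28.8-fold among Old mice, and the groups overlapped, with O3 below A2, A3 and A5 and with A3 above O1, O3 and O4. The log2 fold change of 1.84 (SE 0.79) had an interval of 0.16 to 3.51 and an adjusted p of 0.146. Leaving out O5 lowered it to 0.94, and leaving out O2 and O5 lowered it to 0.50 (adjusted p = 0.719).

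Trp53, the gene of p53 itself (chr11:69580359-69591873), was nearly level in Adult mice, at 24.5, 24.0, 23.3, 20.7 and 22.7 CPM. The Old mice measured 24.7, 33.6, 29.1, 25.8 and 13.5 CPM. O2 was the highest and O5 the lowest of all 15 mice, on either side of the Adult range. Old over Adult gave a log2 fold change of 0.14 (interval -0.25 to 0.53, adjusted p = 0.663).

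Mdm2 (chr10:117688875-117710758) had a narrow interval. Its levels were 23.7 to 27.1 CPM in Adult and 20.1 to 35.4 CPM in Old mice. Its log2 fold change was 0.07 (interval -0.24 to 0.39, adjusted p = 0.788), and -0.11 without O2 and O5.

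Ccng1 (chr11:40748552-40755311), a cyclin induced by p53 that feeds back on it, measured 26.9, 26, 30.2, 32.4 and 31.3 CPM in the Adult mice. The Old mice measured 24.9, 41.0, 31.4, 27.3 and 15.0 CPM. As with Trp53, O2 was the highest and O5 the lowest of all 15 mice. On the log2 scale the difference was -0.07 (interval -0.47 to 0.33, adjusted p = 0.843).

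Gdf15 (chr8:70629393-70632456), a secreted stress cytokine of the TGF-beta family and a target of both p53 and the integrated stress response, measured 33.3, 12.4, 20.9, 5.16 and 18.9 CPM in the Adult mice. The Old mice measured 22.5, 39.3, 28.3, 18.5 and 5.22 CPM. The lowest mice of the 2 groups, A4 and O5, were almost equal. The difference on the log2 scale was 0.33 (interval -0.70 to 1.35, adjusted p = 0.695).

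O2 and O5 therefore sat at opposite ends of the Old group for different members. O2 was the highest Old mouse for Trp53, Mdm2, Ccng1, Gdf15, Cdkn2a and Cdkn2c, and O5 was the highest for Cdkn1a and Btg2 and the lowest for Trp53, Ccng1 and Gdf15. Both had low summed levels of 6 hepatocyte markers, 75800 CPM in O2 and 47100 CPM in O5, while the Adult mice covered 124000 to 137000 CPM. In bulk tissue fewer cells of a type and less RNA per cell cannot be told apart.

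**Figure D2:**
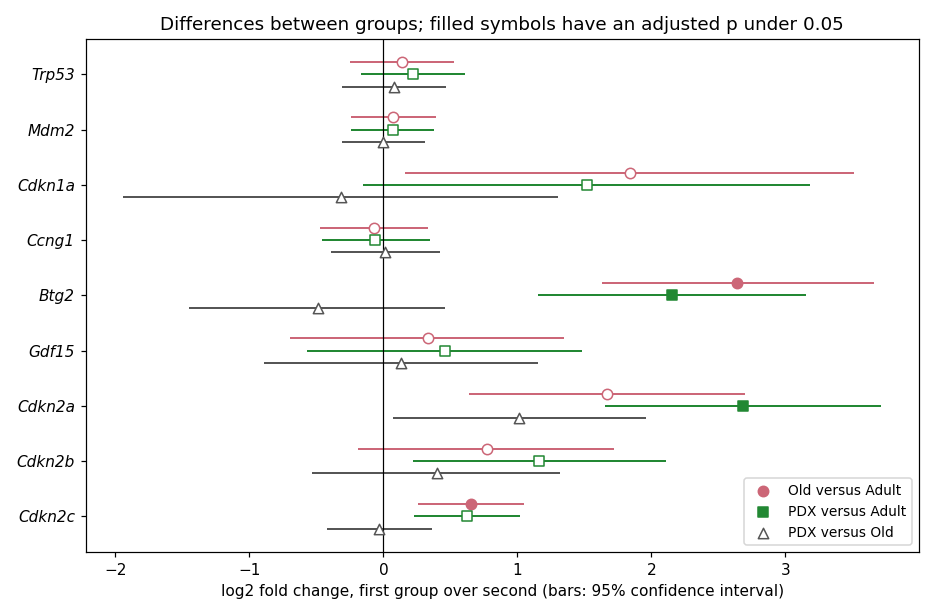
Log2 fold change of each gene between groups on the horizontal axis, with its 95% confidence interval as a bar, for Old over Adult, PDX over Adult and PDX over Old, with filled symbols where the adjusted p was under 0.05. Btg2 is filled for Old over Adult (2.64) and PDX over Adult (2.15), Cdkn2c for Old over Adult (0.65) and Cdkn2a for PDX over Adult (2.68), and no symbol is filled for PDX over Old.

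PDX was set against vehicle by comparing PDX with Old mice, which have the same labelled age. None of the 9 members passed the threshold, and adjusted p-values ran from 0.793 to 0.999. Among all 15808 genes 0 passed, a share of 0%, at an adjusted p under 0.05 and also under 0.25, by edgeR and, at 0.05, by DESeq2. An unadjusted p under 0.05 was held by 834 genes (5.28%). The median log2 fold change was 0.01 over the members and -0.07 over all genes. No member had groups that did not overlap, against 0.342% of all genes.

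Cdkn2a was the member with the lowest unadjusted p (0.0378). It measured 0.71, 1.28, 2.08, 2.75 and 0.722 CPM in the PDX mice, from 18 to 77 reads. P2, P3 and P4 were above every Old mouse, and P1 and P5 lay within the Old range. The log2 fold change over Old was 1.01 (SE 0.44, interval 0.07 to 1.96, adjusted p = 0.793). Over the fits that each left out 1 mouse it stayed between 0.68 and 1.26.

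Btg2 measured 117, 117, 57.7, 40.7 and 57.5 CPM in the PDX mice. These values lay within the Old range except for P4, which was below O1. Relative to Old the log2 fold change was -0.49 (SE 0.45, interval -1.45 to 0.46, adjusted p = 0.809), and without O5 it was 0.19.

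Cdkn1a measured 44.1, 61.5, 41.2, 24.2 and 22.9 CPM in the PDX mice. The range among these mice was 2.68-fold, and all 5 lay between the lowest and the highest Old mouse. Its log2 fold change over Old was -0.32 (SE 0.76, interval -1.94 to 1.3, adjusted p = 0.918), and it was 0.57 without O5 and 1.04 without O2 and O5. Whether the spread differed between the groups was not tested.

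Trp53, Mdm2, Ccng1 and Cdkn2c had log2 fold changes between -0.03 and 0.08 for PDX over Old, and their 95% intervals went no lower than -0.42 and no higher than 0.47. Ccng1 covered 27.3 to 29.3 CPM in the PDX mice, a 1.07-fold range, the smallest ratio of highest to lowest of any member in any group. Cdkn2b (log2 fold change 0.40, interval -0.53 to 1.32) and Gdf15 (0.13, interval -0.89 to 1.15) had wider intervals.

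PDX mice were also set against Adult mice. This comparison shares its Adult mice with the first and its PDX mice with the second. 2 of 9 members rose, Cdkn2a and Btg2, and none fell, against 2.66% of all genes (1.76% as higher and 0.898% as lower in PDX). Groups did not overlap for the same 2 members, against 19.9% of all genes (10.5% higher and 9.38% lower in PDX), and an unadjusted p under 0.05 was held by 4 of 9 members against 20.6% of all genes. The median log2 fold change was 0.62 over the members and -0.01 over all genes. Without O2 and O5, which lie outside this comparison but share its estimate of the spread, 3 of 9 passed, Cdkn2c in addition, and in that fit 24.6% of all 16275 genes tested passed.

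Cdkn2a had a mean of 1.51 ± 0.891 CPM in PDX and 0.230 ± 0.101 CPM in Adult mice, and every PDX mouse was above every Adult mouse. The difference was 6.41-fold (log2 fold change 2.68, SE 0.49, interval 1.65 to 3.71, adjusted p = 0.00914). The Adult values rest on at most 14 reads a mouse, and the call held in each of the 10 fits that left out 1 mouse (adjusted p up to 0.0363). The Old mean of Cdkn2a lay between these means, at 0.745 ± 0.354 CPM, and the Old mice overlapped both groups.

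Btg2 had a mean of 78.0 ± 36.3 CPM in PDX mice, 4.43-fold above the Adult mean (log2 fold change 2.15, SE 0.47, adjusted p = 0.0239). All 5 PDX mice were above every Adult mouse. The call was lost without each Adult mouse and without P1 or P2 (adjusted p from 0.0511 to 0.0750), with log2 fold changes from 1.95 to 2.29 in those fits.

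The other 7 members did not pass the threshold between PDX and Adult mice. Cdkn2c measured 8.71, 10.3, 9.99, 6.89 and 9.76 CPM in the PDX mice, of which only P4 fell below A1 (log2 fold change 0.62, SE 0.19, adjusted p = 0.083). Cdkn2b gave 1.16 (SE 0.44, adjusted p = 0.156), with PDX mice at 0.562 to 1.18 CPM. Cdkn1a gave 1.52 (SE 0.78, adjusted p = 0.284), with all 5 PDX mice above the Adult mean and 3 of them above every Adult mouse. Trp53, Mdm2, Ccng1 and Gdf15 had adjusted p-values from 0.531 to 0.903.

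The wider pathways were read from lists of other genes. In the main fit 6.78% of all genes passed for Old over Adult and 2.66% for PDX over Adult. Among the 29 other p53 targets tested, 2 rose from Adult to Old and none fell. They were Pmaip1, which encodes the proapoptotic protein Noxa (log2 fold change 1.83, adjusted p = 0.048), and Apaf1, the core of the apoptosome (1.29, adjusted p = 0.0292). The share of these targets that passed was near the 6.78% of all genes. The median over these targets was 0.28, and without O2 and O5 none passed and the median was -0.01. None passed without each Adult mouse either, and 1 to 6 passed without each Old mouse. 0 of 12 p53 regulators and 0 of 3 other CDK inhibitors passed. From Adult to PDX, 0 of 29 other p53 targets passed, and without O2 and O5 7 of 29 did, in a fit in which 24.6% of all genes passed.

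Of 29 cyclins, CDKs and genes of the RB and E2F switch, 2 rose from Adult to Old, the cyclin Ccne1 (3.33, adjusted p = 0.0233) and the proliferation marker Mki67 (3.27, adjusted p = 0.034). The share of this list that passed was near the 6.78% of all genes. O2 stood apart here: the summed level of the list was 915 CPM in O2, against 294 to 341 CPM in Adult mice and 309 to 466 CPM in PDX mice. Without O2 and O5, 3 passed and the median was 0.19 in place of 1.01, and 0 to 8 passed when single mice were left out, with 0 or 1 without each Adult mouse. From Adult to PDX none of these genes passed.

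Of 25 genes of the senescence-associated secretory phenotype and other senescence markers, 10 rose from Adult to Old and none fell. Over all genes 6.78% passed. The median over the list was 1.75 on the log2 scale. Among the 10, those with a large fold included the chemokine Ccl8 (16.7 ± 36.5 CPM in Old and 0.0502 ± 0.0598 CPM in Adult mice). Another was Timp1, a metalloproteinase inhibitor (1.82 ± 2.51 and 0.132 ± 0.0308 CPM). In both the SD exceeded the mean in the Old group and the groups overlapped. For others of the 10 every Old mouse was above every Adult mouse, as it was for 3.64% of all genes. Examples were Mmp12 (4.94 ± 2.88 CPM in Old and 0.388 ± 0.21 CPM in Adult mice) and Cxcl1 (48.8 ± 20.5 and 8.7 ± 3.08 CPM). Without O2 and O5, 5 passed and the median was 0.56, and 2 or 3 passed without each Adult mouse. From Adult to PDX, 2 rose, Mmp12, a macrophage elastase (3.81, adjusted p = 0.0064), and Cxcl1, a neutrophil chemokine (3.21, adjusted p = 0.00116). Without O2 and O5 that count was 16, in the fit in which 24.6% of all genes passed.

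Immediate early genes respond, like Btg2, within minutes to growth signals and stress. Of 11 such genes, 4 rose from Adult to Old, against 6.78% of all genes. The rise was led by Jun (1.79), Egr1 (1.63) and Junb (1.51), with adjusted p-values of 0.028, 0.0323 and 0.011. Without O2 and O5, 6 passed and the median fell from 1.39 to 0.78, and 1 to 6 passed when single mice were left out, with 1 or 2 without each Adult mouse. From Adult to PDX, Egr1 (2.63, adjusted p = 0.00458) and Junb (1.85, adjusted p = 0.0024) rose. The summed level of the list was 311 to 568 CPM in Adult, 462 to 987 CPM in Old and 572 to 1300 CPM in PDX mice. O5, the mouse with the highest Btg2, was the lowest Old mouse in this sum. Of 12 genes of the integrated stress response, 2 rose from Adult to Old, the serine synthesis enzymes Phgdh (2.97, adjusted p = 0.0173) and Psat1 (2.05, adjusted p = 0.0192), and none from Adult to PDX. That count was 0 to 2 without each Adult mouse. 0 of 12 clock genes passed in either comparison, with medians of -0.19 for Old and -1.08 for PDX against Adult. An unadjusted p under 0.05 in the same test was held by 7 of 12 for PDX over Adult, against 20.6% of all genes. For Old over Adult it was held by 0 of 12, against 27.7% of all genes.

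**Figure D3:**
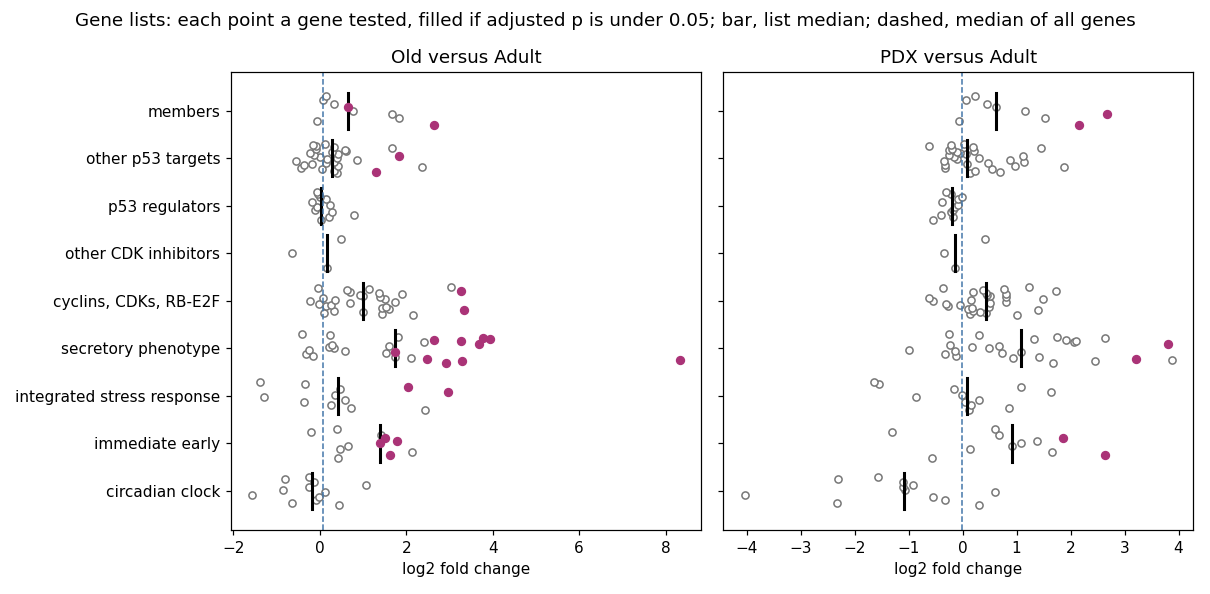
Log2 fold change of every tested gene in 9 lists on the horizontal axis, for Old over Adult on the left and PDX over Adult on the right, with genes at an adjusted p under 0.05 filled, a bar at each list's median and a dashed line at the median of all genes. In the left panel the secretory list has 10 filled points and a median of 1.75, while the other p53 targets have 2 and a median of 0.28.

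Markers of other cells also differed between the groups. Over all genes 6.78% passed for Old over Adult and 2.66% for PDX over Adult. All 8 tested neutrophil and granulocyte precursor markers rose from Adult to Old, and 3 of 8 passed from Adult to PDX. For Old over Adult, 3 of 8 passed without O2 and O5, with the median log2 fold change at 2.98 in place of 5.43, and 2 or 3 of 8 passed without any 1 of the Adult mice. Their summed level was 2.50 to 6.33 CPM in Adult, 19.8 to 266 CPM in Old and 41.7 to 200 CPM in PDX mice. The neutrophil marker Ly6g, too low for the test, was at 0 reads in all 5 Adult mice, 3 of 5 Old mice and 2 of 5 PDX mice, Camp was at 0 reads in 2 Adult mice and Elane in 1. B cell and plasma cell markers passed for 4 of 6 genes in Old and 1 of 6 in PDX mice, with 1 of 6 in Old without each Adult mouse and without O2 (sums 7.46 to 12.9, 14.4 to 116 and 32.6 to 65.1 CPM in Adult, Old and PDX). Macrophage markers passed for 2 of 9 and 1 of 9, with sums of 458 to 690, 412 to 3390 and 802 to 1690 CPM. Stellate cell markers passed for 2 of 7 (none without each Adult mouse or O2) and 0 of 7, with sums of 351 to 383, 359 to 852 and 344 to 649 CPM. Cholangiocyte markers passed for 0 of 5 and 1 of 5, with sums of 37.6 to 50.9, 50.9 to 95.7 and 53 to 104 CPM. No T cell, endothelial or hepatocyte marker passed in either comparison, and O2 had a T cell sum of 163 CPM against at most 25.2 CPM in any Adult or PDX mouse. Cd4 made up most of that sum: it reached 3956 reads in the Old group, and no other T cell marker exceeded 514 reads in any mouse. Btg2 rose in both comparisons and Cdkn2a in that of PDX with Adult mice. In these same comparisons some neutrophil, B cell and macrophage markers passed. The part of these cells in the levels of both genes was not tested.

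Genes whose levels followed Cdkn1a were sought over the 15 mice among 12014 genes. The 5 with the highest Pearson r in log2 CPM were Ano10, an anoctamin (0.877), Skil, a repressor of SMAD signalling (0.869), Ctla2a, a cysteine protease inhibitor (0.867), Mmp14, a membrane metalloproteinase (0.867) and Jdp2, a repressor related to AP-1 (0.858). With group means removed r was 0.802 to 0.836 for these genes, and without O2 and O5 it was 0.826 to 0.891 over 13 mice. For Btg2, a search added after its values were seen, the 5 genes were Nfkbiz (0.948), Sult1e1 (0.933), Saa3 (0.924), Ly6d (0.912) and Ppp3cc (0.910). All 5 rose from Adult to Old, as 4.71% of all genes did. They were picked for following Btg2 across the groups, so their rise is not a separate result. With group means removed their r was 0.686 to 0.866. These values describe 15 libraries that share groups and were picked as the highest of many.

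The labels give each mouse a frailty index score, so member levels were set against it in the 10 Old and PDX mice, together with treadmill distance, in 18 relations tested by permutation. None passed after adjustment. The 3 lowest p-values were for the frailty index with Ccng1 (r = -0.816, rho = -0.547, permutation p = 0.0178), Trp53 (r = -0.812, rho = -0.353, permutation p = 0.023) and Gdf15 (r = -0.791, rho = -0.419, permutation p = 0.0233). Each had an adjusted p of 0.14 for r and 0.917 for rho. O5 had the highest frailty index (0.56) and the lowest Trp53, Ccng1 and Gdf15 of these mice, and O4 the next highest index (0.33). Without those 2 mice r was -0.32 for Ccng1, -0.234 for Trp53 and -0.105 for Gdf15, so the 3 relations were weaker without the pair. O4 measured 27.3, 25.8 and 18.5 CPM for Ccng1, Trp53 and Gdf15, within the range of the mice kept. The part of each of the 2 mice in these r values was not tested. Cdkn1a (r = 0.407, adjusted p = 0.676) and Btg2 (r = 0.413, adjusted p = 0.676) turned to r = -0.285 and -0.641 without O4 and O5. Leaving out O5 alone gave r = -0.203 for Cdkn1a and -0.638 for Btg2, and leaving out O2 alone gave 0.481 and 0.451. Each group has 5 mice, too few for r within a group.

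**Figure D4:**
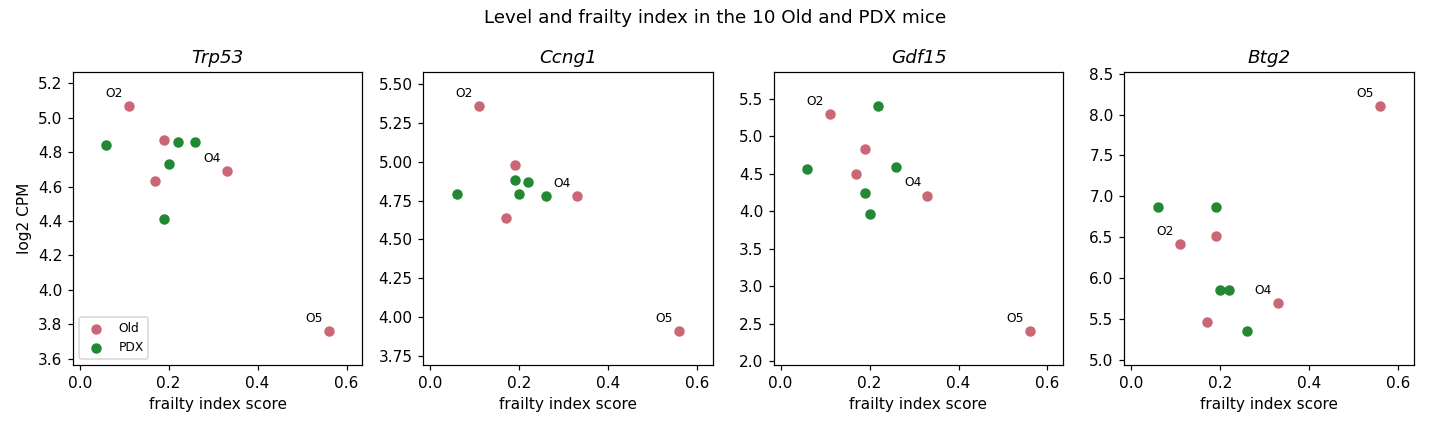
Frailty index score of each Old and PDX mouse on the horizontal axis and log2 CPM on the vertical axis for Trp53, Ccng1, Gdf15 and Btg2, with Old and PDX mice coloured. O5, at an index of 0.56, lies alone at the low end for the first 3 genes and at the high end for Btg2.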

How the data were processed

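Per the study's methods, the authors isolated total RNA from frozen liver, prepared stranded libraries from 200 ng after poly(A) selection, aligned paired reads to mm10 with STAR 2.6.0c and assigned properly paired, uniquely placed reads to genes by strand with featureCounts (Subread 1.6.2) on an Ensembl annotation, leaving out mitochondrial genes. The deposited count table holds these raw counts, and a second deposited table holds log2-scale variance-stabilized values made by the authors with DESeq2 1.23.10, used here only as an alternative scale for the frailty relations. Library totals were 22424383 to 36070835 counts. Symbols and coordinates came from GENCODE M21 on GRCm38, and promoter sequences from RefSeq on GRCm38.p6.

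Counts were analysed with edgeR 4.0.16 in R 4.3.3. Genes were kept by its expression filter (minimum count 10, minimum total 15), normalized by TMM, and tested by the quasi-likelihood test with 1 coefficient per group over all 15 mice, with Benjamini-Hochberg adjustment at 0.05. CPM per mouse used TMM-scaled totals, and log2 CPM a prior count of 2. All members passed the filter, so the permutation test planned for members under it was not needed. Frailty relations used two-sided permutation tests with 100000 resamples. On simulated counts for Old versus Adult over 15808 genes, 200 genes were changed by 2 on the log2 scale. Of these, edgeR recovered 155 with 13 false calls, and DESeq2 1.42.0 recovered 170 with 40 false calls. With 0 genes changed, edgeR called 0 genes and DESeq2 called 10. Whether these numbers hold for the measured mice was not tested. Alternatives were DESeq2, RLE normalization, no filter beyond 1 count, a replicate block, fits of 2 groups only, fits without O2 and O5, and leaving out each mouse. The study itself reports that O2 and O5 lay apart from the other mice over all genes, and that they weighed heavily on its pathway results. Mouse numbers come from the sample titles, and no label pairs mice across groups. Within each group the numbers run in order of the labelled count of positive frailty criteria, then of the frailty index score. The replicate block therefore groups mice by their place in that order. The study's methods state that mice were studied in batches, but no label gives a batch. The p-values measure the spread between individual mice.

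The members, the gene lists and the marker lists were chosen with earlier results of these data known. Genes were named by rule: every member, in each other list up to 3 genes with the largest change among those past the threshold between Old and Adult and between PDX and Adult, the 5 genes most like Cdkn1a whose log2 CPM averaged 1 or more, and markers whose list moved with a member. 1 gene that this rule names is not reported here. The lists hold 30 other p53 targets, 14 p53 regulators, 3 other CDK inhibitors, 30 cell cycle genes, 28 secretory and senescence genes, 12 integrated stress response genes, 11 immediate early genes and 12 clock genes, with markers of 8 cell types.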

Additional observations from a re-analysis of the deposited data

Results flagged for a closer look

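The highest and lowest mouse of each group were compared with the rest of the group for each of the 9 members by Dixon's gap test, 27 sets of 5 mice in all, and 3 mice stood apart. Chance flags about 1 in 20 such sets. Btg2 in O5 measured 276 CPM, against 44.1 to 91.4 CPM in the other Old mice. Cdkn2c in O2 measured 13.7 CPM, against 7.27 to 9.04 CPM in the other Old mice. Cdkn2c in A1 measured 7.47 CPM, against 5.31 to 5.79 CPM in the other Adult mice. The calls of both genes without these mice stand with their values above.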

How the results depend on the processing

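Between Old and Adult mice 2 of 9 members passed, and 3 passed with DESeq2 and with RLE normalization, which added Cdkn2a. 1 passed with no filter beyond 1 count, with only the 2 groups compared and without O2 and O5, and 1 to 3 when single mice were left out; the one was Btg2 in each of these fits, and the cause was not tested. With the replicate number as a block 1 passed between Old and Adult and 2 between PDX and Adult, and the log2 fold change of Mdm2 between PDX and Old was 0.01. Deviations of same-numbered mice correlated by -0.168 on average between Old and Adult, 0.031 between PDX and Adult and 0.092 between PDX and Old. Those of differently numbered mice correlated by 0.0435, -0.0078 and -0.0225. With 5 same-numbered pairs in each comparison, these values alone do not settle whether the numbers pair mice. The labels give no pairing, and the numbers follow the frailty order within each group. The block took calls over all genes from 1072 to 237 and from 420 to 316. Between PDX and Adult mice 2 passed, 3 with DESeq2, in fits of 2 groups and without O2 and O5, and 1 to 2 when single mice were left out. Between PDX and Old mice 0 passed in every fit run. Over all genes, calls between Old and Adult were 2524 with DESeq2, 665 without the filter, 105 in fits of 2 groups and 156 to 2178 without single mice, and those between PDX and Adult 1383 with DESeq2, 4529 in fits of 2 groups, 4004 without O2 and O5 and 166 to 585 without single mice.

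Between PDX and Old mice without O2 and O5, log2 fold changes were 1.04 for Cdkn1a, 0.12 for Cdkn2c, 0.20 for Mdm2 and 0.33 for Btg2, and Mdm2 was 0.01 without the filter. Between Old and Adult without O2 and O5, Mdm2 was -0.11. When single mice were left out, the PDX over Old values ran from -0.61 to 0.57 for Cdkn1a, -0.71 to 0.19 for Btg2, -0.11 to 0.15 for Cdkn2c, -0.08 to 0.20 for Trp53, -0.10 to 0.11 for Mdm2, -0.14 to 0.19 for Ccng1 and -0.15 to 0.41 for Gdf15. The Old over Adult values ran from -0.03 to 0.18 for Mdm2 and -0.24 to 0.09 for Ccng1. Correlations with the frailty index were -0.109 for Cdkn1a and -0.619 for Btg2 without O2 and O5. Without the 2 farthest mice, an alternative chosen after seeing the data, they were -0.285 for Cdkn1a, 0.631 for Cdkn2a and -0.641 for Btg2. Leaving out single mice gave -0.203 to 0.523 for Cdkn1a and -0.638 to 0.590 for Btg2. No member failed the filter, so the alternatives planned for such members gave no value. With 5 mice a group and 2 to 77 reads for Cdkn2a and Cdkn2b, small differences in these genes were not detectable.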
